A study of Mus musculus with 4 samples.

Results

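Spp1, Lgals1, Lgals3, Lgals9, Lgals3bp, Gpnmb and Thbs1 are 7 of the 41862 gene columns of 4 single-cell RNA libraries from mouse central nervous system. They are secreted glycoproteins, galectins and a membrane protein that activated phagocytes are known to make. They were picked by name, after earlier results on these libraries had shown some of them at higher levels in disease, so every level below is a description of these libraries and none of it is a test. All 7 had a column in each library and all 7 are accounted for.

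Osteopontin, the product of Spp1, is a secreted phosphoprotein that binds integrins and CD44 and is made by activated macrophages and microglia, by osteoblasts and by some fibroblasts. Galectins are lectins that bind galactose-containing sugars on glycoproteins such as LAMP1 and CD45, and galectin-3, from Lgals3, is a long-used marker of activated macrophages. Experimental autoimmune encephalomyelitis (EAE) is a model of inflammatory demyelination in which T cells primed against a myelin peptide enter the central nervous system together with monocytes, and resident microglia change state.

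The libraries were an EAE TRAIL+, an EAE TRAIL-, a naive TRAIL+ and a naive TRAIL- fraction, 1 library each. All came from C57BL6 mice carrying the Aldh1l1CreERT2-TdTomato reporter, in which an inducible Cre under the astrocyte promoter Aldh1l1 switches on the red protein TdTomato. EAE was induced with 150 µg of the myelin peptide MOG35-55 in complete Freund's adjuvant, and the cells were taken at the peak phase. Cells came from 3 mice per state, and whether the mice were pooled was not given in the sources used here. Tissue was digested with papain, passed through a 70 µm filter and cleared on 30% Percoll. TdTomato+ cells were then sorted by surface LAMP1 and by the presence or absence of surface TRAIL, a death ligand encoded by Tnfsf10, before droplet capture by inDrops. With 1 library per group there is no replicate spread and no p-value, and the 95% intervals below cover counting error only.

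The kept barcodes (at least 500 UMIs and at most 20% mitochondrial UMIs) numbered 1814, 1597, 2229 and 2259 in the EAE TRAIL+, EAE TRAIL-, naive TRAIL+ and naive TRAIL- libraries, with medians of 1907.5, 1191, 1505 and 949 UMIs. Any pair of libraries shared 23 to 40 barcode sequences. The label of astrocytes went against the captured RNA, since 9, 3, 153 and 35 barcodes in the same order were astrocyte-like by their marker genes. Microglia-like cells made up 90.3% and 84.2% of the EAE and naive TRAIL+ libraries, against 19.2% and 14.1% of the EAE and naive TRAIL- libraries, where endothelial-like and pericyte-like cells prevailed. A cluster of monocyte or macrophage-like cells led by Chil3, Plac8 and Lyz2 held 121 and 227 barcodes in the EAE TRAIL+ and TRAIL- libraries, against 17 and 18 in the naive TRAIL+ and TRAIL- libraries. It is called Chil3-led below, and Lgals3 and Thbs1 were among its 10 leading genes although the 7 genes were left out of the clustering. The sort gene Tnfsf10 went against the TRAIL labels at the RNA level in whole libraries and microglia-like cells, but not in Chil3-led cells of EAE. It had 17.3 and 48.6 counts per 1000000 UMIs (CPM) in the whole EAE TRAIL+ and TRAIL- libraries. In the naive TRAIL+ and TRAIL- libraries it had 4.40 and 100.4 CPM. In microglia-like cells it had 16.7 and 31.4 CPM in EAE TRAIL+ and TRAIL-, and 4.84 and 19.9 CPM in naive TRAIL+ and TRAIL-. In Chil3-led cells it had 25.8 and 3.28 CPM (9 and 2 UMIs) in EAE TRAIL+ and TRAIL-. Endothelial-like cells had 181 and 232 CPM in EAE TRAIL- and naive TRAIL-. Their part in the whole-library levels was not tested. Lamp1 had 675, 661, 744 and 521 CPM, and Aldh1l1 had 5.59, 4.31, 11.8 and 8.01 CPM, in EAE TRAIL+, EAE TRAIL-, naive TRAIL+ and naive TRAIL-. The transcript of the TdTomato reporter was not among the columns used here. The libraries below are therefore named by their labels.

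In the GENCODE annotation of GRCm38 all 7 are protein-coding. Spp1 lies on chromosome 5 (104435118-104441050, plus strand), Lgals1 on 15 (78926725-78930465, plus), Lgals3 on 14 (47367751-47386160, plus), Lgals9 on 11 (78962974-78984946, minus), Lgals3bp on 11 (118392751-118402092, minus), Gpnmb on 6 (49036546-49070929, plus) and Thbs1 on 2 (118111876-118127133, plus). Thbs1 overlaps the antisense RNA gene Gm29233 and Spp1 overlaps the same-strand model Gm42793. Both have columns of their own, and whether counting used strand was not given in the sources used here, so the overlapping reads cannot be told apart.

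The RefSeq promoter table (GRCm38.p6) held 5 of the 7, without Lgals1 and Thbs1. Promoters are shown for the 4 that held a match to a motif searched: Spp1 and Gpnmb, whose UMIs in EAE TRAIL+ lay mainly in Chil3-led cells, and Lgals3bp and Lgals9, whose UMIs there lay mainly in microglia-like cells. The window of Lgals3, which had 0 matches, is not printed, although its UMIs lay in Chil3-led cells as those of Spp1 and Gpnmb did. The bases before each gene's start in the RefSeq table are given 5′ to 3′ on the gene's strand. Exons were trimmed off for Spp1, Gpnmb and Lgals9 only. Capitals mark the matches to 3 of 5 short motifs searched on both strands. The motifs were chosen after the sequences had been read, and the Lgals3bp stretch was chosen for its matches. That stretch lies inside the GENCODE span of Lgals3bp given above and was not checked against exons.
Spp1: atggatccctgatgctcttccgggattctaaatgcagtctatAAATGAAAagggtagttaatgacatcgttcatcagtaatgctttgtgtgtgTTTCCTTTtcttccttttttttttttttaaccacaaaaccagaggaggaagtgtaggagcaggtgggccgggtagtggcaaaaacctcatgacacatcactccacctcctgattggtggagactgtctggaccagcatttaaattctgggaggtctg
Gpnmb: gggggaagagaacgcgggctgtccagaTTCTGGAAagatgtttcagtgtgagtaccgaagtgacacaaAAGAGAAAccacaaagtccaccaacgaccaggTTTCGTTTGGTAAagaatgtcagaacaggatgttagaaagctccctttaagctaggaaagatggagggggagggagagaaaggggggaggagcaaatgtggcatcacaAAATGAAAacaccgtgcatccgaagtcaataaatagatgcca
Lgals3bp: CATGTGtTTTCTGAAAATCGAAA
Lgals9: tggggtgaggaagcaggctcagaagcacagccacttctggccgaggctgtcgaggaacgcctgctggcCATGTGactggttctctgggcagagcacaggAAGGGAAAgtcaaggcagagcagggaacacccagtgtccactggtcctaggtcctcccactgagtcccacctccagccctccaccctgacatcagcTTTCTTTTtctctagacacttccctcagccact
These stretches are chr5:104434861-104435110 (plus) for Spp1, chr6:49036268-49036517 (plus) for Gpnmb, chr11:118401966-118401988 (minus) for Lgals3bp and chr11:78984947-78985174 (minus) for Lgals9. The interferon regulatory factor core AANNGAAA was in 5 of the 6 windows of the 5 genes (Spp1 has 2 starts in the table), and in 21.3% of the 32851 promoters of the table. The C/EBP half-sites TTNNGNAA, which can overlap that core, were in 3 of 6 windows and 36.9% of all promoters. The M-box CACATG, bound by MITF and TFE factors, was in 2 of 6 windows (Lgals3bp and Lgals9) and 12.2% of all. The AP-1 motif TGANTCA and the STAT motif TTCNNNGAA were in 0 of 6 windows and in 6.75% and 7.02% of all. A match is a run of letters in this window and nothing more.

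In whole libraries, Spp1, Lgals3, Lgals3bp and Thbs1 stood at least 3-fold higher in EAE than in naive in both sorted fractions, and Lgals9 by less than 2-fold. Spp1 had 200.8 CPM (755 UMIs) in EAE TRAIL+ and 198 CPM (505 UMIs) in EAE TRAIL-, against 23.9 CPM (87 UMIs) in naive TRAIL+ and 51.7 CPM (142 UMIs) in naive TRAIL-. Both EAE libraries lay above both naive libraries. The ratio was 8.39 (6.71 to 10.6) for TRAIL+ and 3.83 (3.18 to 4.65) for TRAIL-.

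The galectins went different ways in size. Lgals3 had 193 and 510.3 CPM in EAE TRAIL+ and EAE TRAIL-, against 8.80 and 24.7 CPM in naive TRAIL+ and naive TRAIL-. That is 21.9-fold (15.4 to 32.3) and 20.6-fold (16.2 to 26.7) higher in EAE, similar in the sorted fractions although the levels were not. Lgals1, the prototype galectin with a single lectin domain, had 48.9 and 149 CPM in EAE TRAIL+ and TRAIL-, against 17.1 and 93.5 CPM in naive TRAIL+ and TRAIL-. EAE TRAIL+ lay below naive TRAIL-, so here the disease states overlapped across the sort. Lgals9, a tandem-repeat galectin and ligand of the receptor TIM-3, had 406 and 276 CPM in EAE TRAIL+ and TRAIL-, against 251 and 185 CPM in naive TRAIL+ and TRAIL-. It was 1.62-fold (1.49 to 1.76) and 1.49-fold (1.33 to 1.67) higher in EAE.

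Lgals3bp encodes a secreted glycoprotein of the scavenger-receptor family that galectin-3 binds. It had 823 and 515 CPM in EAE TRAIL+ and TRAIL-, against 151 and 121 CPM in naive TRAIL+ and TRAIL-. The ratios were 5.45 (4.98 to 5.98) and 4.27 (3.78 to 4.83). Gpnmb, a membrane glycoprotein of phagocytes that handle lipid and a known target of MITF, had 54.8 and 72.6 CPM in EAE TRAIL+ and TRAIL-, against 4.13 and 1.82 CPM in naive TRAIL+ and TRAIL-. The naive values rest on 15 and 5 UMIs. Thbs1 encodes thrombospondin-1, a matricellular protein that binds CD47 and CD36. It had 350.0 and 918 CPM in EAE TRAIL+ and TRAIL-, against 34.1 and 74.2 CPM in naive TRAIL+ and TRAIL-, which is 10.3-fold (8.53 to 12.4) and 12.4-fold (10.7 to 14.3) higher in EAE.

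**Figure D1:**
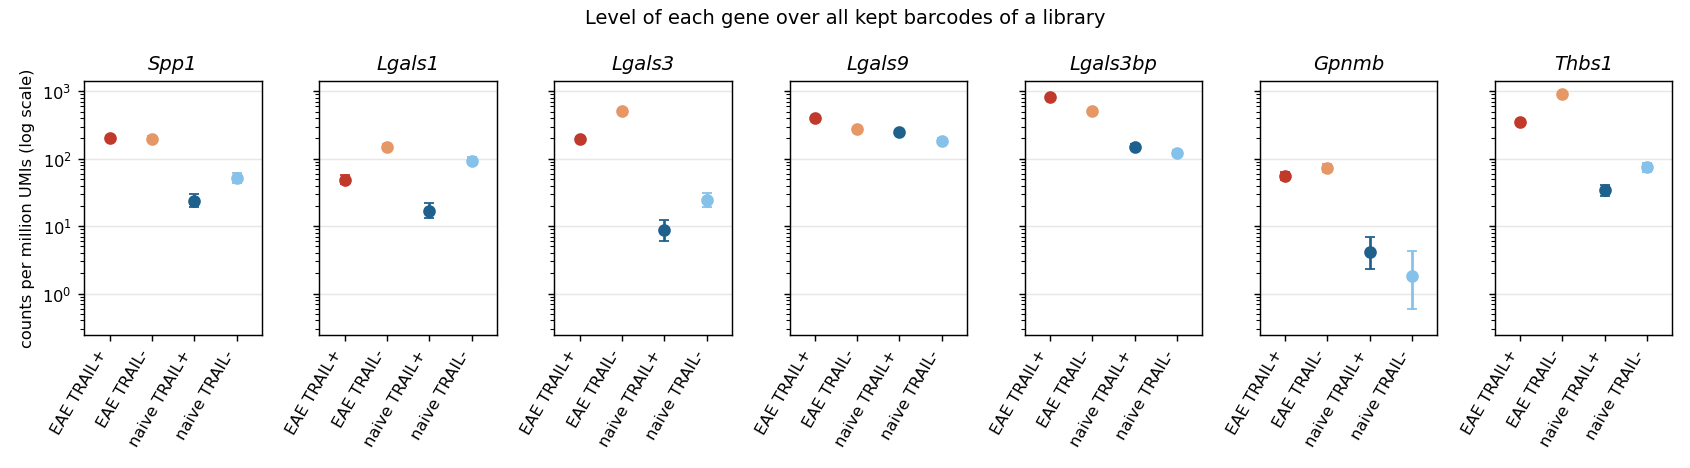
Level of each gene (CPM, log axis) in the 4 libraries, 1 point per library with its 95% Poisson interval. Both EAE libraries lie above both naive libraries for 6 of the 7 genes, and for Lgals1 they do not.

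Genes were compared when their mean over a pair of libraries reached 50 CPM, and called at 2-fold. For EAE TRAIL+ over naive TRAIL+, 5 of the 7 passed that minimum and 4 were higher and 0 lower, where 3.53% of the 3317 genes compared were higher and 1.9% lower. For EAE TRAIL- over naive TRAIL-, 6 of 7 passed, and 4 were higher and 0 lower, where 6.93% of 4057 were higher and 5.32% lower. Lgals3 passed the minimum only through its EAE level, and in the TRAIL+ libraries so did Spp1 and Thbs1. Gpnmb passed in neither, and Lgals1 only in TRAIL-. A gene that passes in this way had to differ, and the 7 were picked for such differences, so nothing is read from these counts. The comparisons share their libraries with those of TRAIL+ and TRAIL- below. In whole libraries, more cells of a class and more RNA per cell cannot be told apart.

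Between the sorted fractions the genes split. For EAE TRAIL+ over EAE TRAIL-, 3 of 7 were lower and 0 higher, where 17.0% of 3647 genes were lower and 11.7% higher. These were Lgals1 at 3.05-fold (2.55 to 3.66), Lgals3 at 2.64-fold (2.41 to 2.90) and Thbs1 at 2.62-fold (2.45 to 2.81) lower. Lgals1, at 48.9 CPM in EAE TRAIL+, passed the minimum only through TRAIL-. Lgals3bp and Lgals9 were 1.60-fold and 1.47-fold higher in EAE TRAIL+, Spp1 was level at a ratio of 1.01 (0.904 to 1.14), and Gpnmb was 1.32-fold lower. For naive TRAIL+ over naive TRAIL-, 2 of the 4 compared were lower and 0 higher, where 22.7% of 3848 genes were lower and 14.6% higher. Lgals1 was 5.49-fold (4.14 to 7.36) lower and Thbs1 2.18-fold (1.73 to 2.74) lower, on the log2 scale a change of -1.12 for Thbs1 that became -0.92 with TMM factors, -0.82 with DESeq2 size factors and -0.94 without the highest barcodes, all inside 2-fold. Both genes passed the minimum only through naive TRAIL-.

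The UMIs of the 7 genes came from few cell classes, and not the same ones. In the EAE libraries the Chil3-led cells held 9.29% (TRAIL+) and 23.9% (TRAIL-) of all UMIs. They held 87.1% and 95.2% of the Thbs1 UMIs, 82.1% and 93.4% of Lgals3, 78.2% and 95.7% of Gpnmb, and 81.6% and 48.7% of Spp1, in EAE TRAIL+ and EAE TRAIL-. The rest of the Spp1 in EAE TRAIL- was largely in pericyte-like cells, with 33.9% of its UMIs. For Lgals1 the Chil3-led cells held 70.7% and 46.2%, and microglia-like cells 16.8% in EAE TRAIL+. Microglia-like cells gave most of Lgals9 and Lgals3bp in EAE TRAIL+, with 92.6% and 91.2%, and 33.1% and 53.7% of them in EAE TRAIL-.

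In naive TRAIL+, microglia-like cells held most of Lgals9 (94.2%) and Lgals3bp (84.5%), as they did in EAE TRAIL+. They also held 54.0% of Spp1, 54.8% of Thbs1 and 43.8% of Lgals3 there, where Chil3-led cells held 28.1% of Lgals3. In naive TRAIL-, fibroblast-like cells held 73.2% of the Spp1 UMIs with 2.21% of all UMIs. The 18 Chil3-led cells there held 64.7% of Lgals3 and 48.5% of Thbs1 with 1.75% of all UMIs. Choroid plexus-like cells held 52.1% of Lgals1, and endothelial-like cells held 64.6% of Lgals9 and 53.6% of Lgals3bp. Leaving the Chil3-led cells out of the whole libraries lowered the log2 ratio of EAE TRAIL+ over naive TRAIL+ to 0.78 for Spp1 and 0.70 for Thbs1. For EAE TRAIL- over naive TRAIL- it became 1.34 for Spp1 and 0.57 for Thbs1, while Lgals3 was at 2.57 and 2.32 in the TRAIL+ and TRAIL- pairs.

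**Figure D2:**
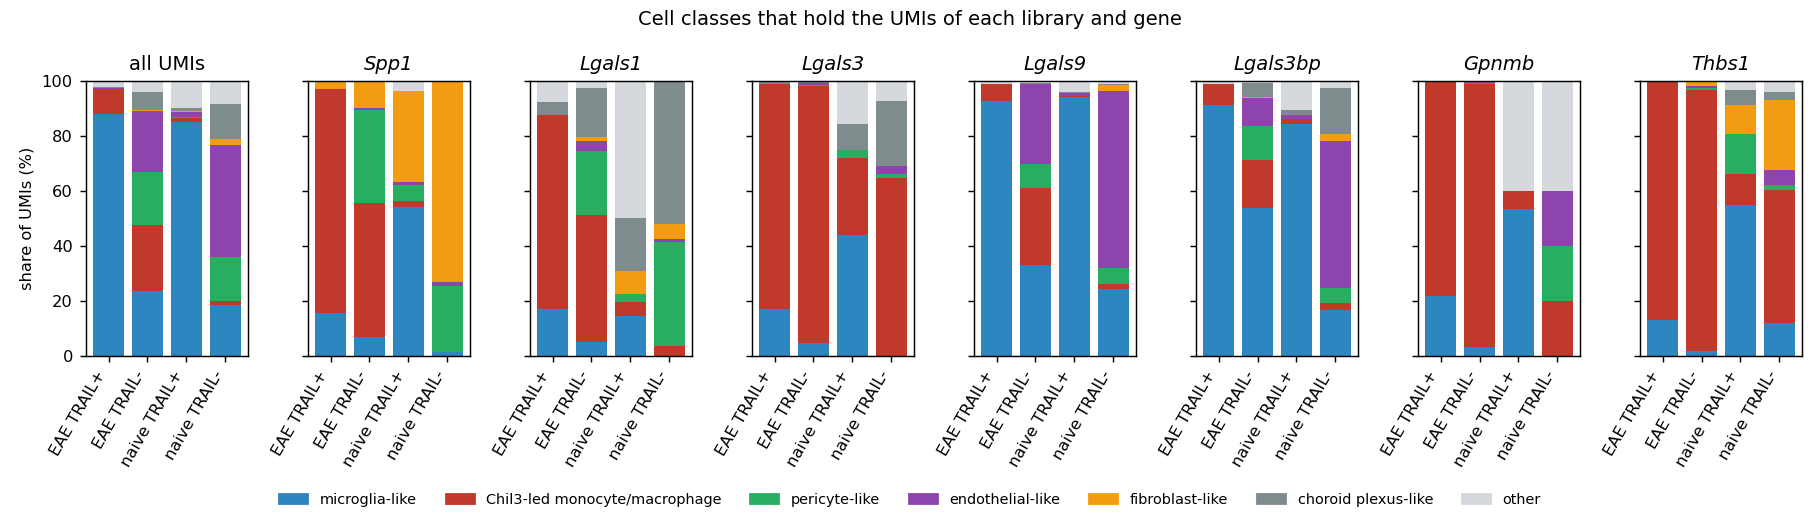
Stacked bars of the share of UMIs (percent) by cell class in each library, for all UMIs in the leftmost panel and for each gene in the others. In the EAE libraries Thbs1, Lgals3 and Gpnmb come mostly from the Chil3-led cells, which hold 9.29% and 23.9% of all UMIs there.

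The cell makeup of the EAE libraries was also applied to the class levels of the naive ones, a calculation added after the data were seen. With the makeup of EAE TRAIL- and the levels of naive TRAIL-, Lgals3 would stand 9.0-fold and Thbs1 6.93-fold above naive TRAIL-, against 20.6 and 12.4 observed. For Spp1 and Lgals3bp the same makeup gave ratios of 0.527 and 1.00, against 3.83 and 4.27 observed. With the makeup of EAE TRAIL+ and the levels of naive TRAIL+, Lgals3 and Thbs1 would be 2.80-fold and 1.54-fold above naive TRAIL+, and Spp1 and Lgals3bp at ratios of 0.821 and 1.03. The naive levels of Chil3-led cells in this calculation rest on 17 and 18 cells, and 43 of the 99 Thbs1 UMIs in those of naive TRAIL- were in 1 cell.

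Chil3-led cells carried Thbs1, Lgals3, Spp1, Gpnmb and Lgals1 at higher levels than microglia-like cells in both EAE libraries. Thbs1 had 3282 and 3655 CPM in the Chil3-led cells of EAE TRAIL+ and EAE TRAIL-, against 330.5 and 2059 CPM in the 17 and 18 such cells of naive TRAIL+ and TRAIL-. Lgals3 had 1707 and 1993 CPM in EAE, against 212 and 915 CPM in naive. Gpnmb had 461 and 290.3 CPM in EAE, against 23.6 and 20.8 CPM (1 UMI each) in naive. Lgals1 had 372 and 289 CPM in EAE, against 70.8 and 187 CPM in naive. The naive classes were under the 50 barcodes set for a comparison, so no ratio is given.

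Most Chil3-led cells held Lgals3 and Thbs1, and a minority held Spp1 and Gpnmb. Lgals3 was seen in 92 of 121 (76.0%) and 177 of 227 (78.0%) Chil3-led cells of EAE TRAIL+ and TRAIL-, and Thbs1 in 82 (67.8%) and 149 (65.6%). Spp1 was seen in 30 (24.8%) and 38 (16.7%), and Gpnmb in 25 (20.7%) and 26 (11.5%). Endothelial-like cells of EAE TRAIL- were set beside them, and are shallower (median 1046 against 2742 UMIs). They showed Lgals3 in 1%, Thbs1 in 2.60%, Spp1 in 0.400% and Gpnmb in 0.2% of 500 cells. Thinned to 500 UMIs a cell, the EAE TRAIL- shares of Lgals3 were 49.8% in Chil3-led cells and 0.600% in endothelial-like cells. For Thbs1, Spp1 and Gpnmb the endothelial-like shares are given at unequal depth only. EAE TRAIL+ held 3 endothelial-like cells, too few for such a comparison. How much of the share in either class is free RNA, and how much the cells' own, was not tested.

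Of the 7 genes, Spp1 differed by more than 2-fold between the EAE libraries in these cells. It had 1764 CPM in the Chil3-led cells of EAE TRAIL+ and 403 CPM in those of EAE TRAIL-, a ratio of 4.37 (3.77 to 5.09). It was 1 of 7 higher, with 0 of 7 lower, where 5.27% of 3170 genes were higher and 6.69% lower. A single cell of EAE TRAIL+ held 210 of the 616 Spp1 UMIs (34.1%) and 5 cells held 74.7%, against 34 of 246 (13.8%) in the highest cell and 45.9% in the top 5 of EAE TRAIL-. The log2 ratio of 2.13 became 1.77 without the highest barcode of each library. Lgals3 was spread more evenly, since 17 and 36 cells held 50% of its UMIs in EAE TRAIL+ and TRAIL-, against 2 and 6 cells for Spp1.

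The other 6 stayed within 2-fold between these cells of EAE TRAIL+ and EAE TRAIL-. Lgals3bp had 667 CPM against 379 CPM (1.76-fold higher, 1.46 to 2.12) and Gpnmb 461 against 290.3 CPM (1.59-fold higher, 1.28 to 1.98). Leaving out the highest barcode, which held 67 of 177 Gpnmb UMIs in EAE TRAIL-, took the Gpnmb log2 ratio from 0.67 to 1.11. Lgals1 was 1.29-fold higher, Lgals3 1.17-fold lower, Lgals9 1.15-fold lower and Thbs1 1.11-fold lower. Marker genes of microglia moved with the sort in the same cells, with 9946 CPM in EAE TRAIL+ and 2819 CPM in EAE TRAIL-, while Chil3, Plac8 and Ly6c2 together had 2921 and 8987 CPM. Their part in the Spp1 difference was not tested.

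Within the Chil3-led cells Gpnmb was found more often beside Spp1, on small numbers. At 500 UMIs a cell, Gpnmb was in 5 of 21 cells with Spp1 (23.8%) and 9 of 100 without (9%) in EAE TRAIL+. In EAE TRAIL- it was in 5 of 23 with (21.7%) and 7 of 204 without (3.43%). Lgals3 was in 11 of 21 cells with Spp1 and 45 of 100 without in EAE TRAIL+, and in 15 of 23 with and 98 of 204 without in EAE TRAIL-. These counts are given as a description.

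**Figure D3:**
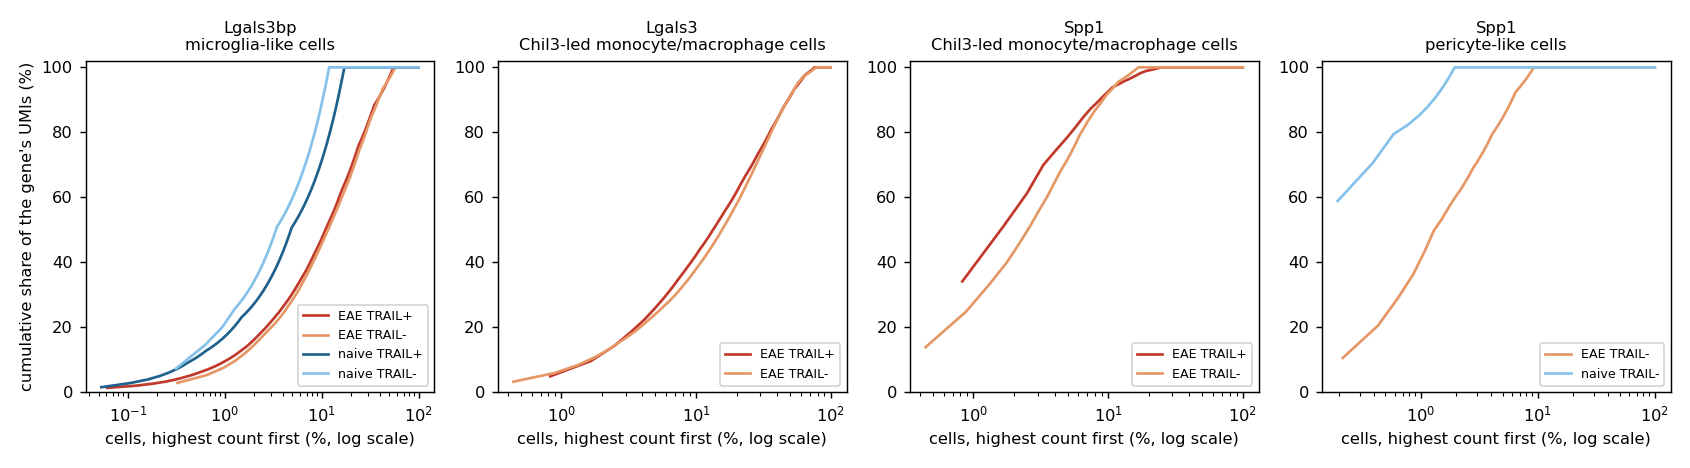
Cumulative share of a gene's UMIs (percent) against the share of cells, highest first (percent, log axis), for Spp1 and Lgals3 in Chil3-led cells, Lgals3bp in microglia-like cells and Spp1 in pericyte-like cells. The Spp1 curve of Chil3-led cells in EAE TRAIL+ rises earliest of the 2 EAE libraries, with 34.1% of its UMIs in 1 cell.

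In microglia-like cells Lgals3bp was the member with the clearest difference. It had 854 and 1167 CPM in the microglia-like cells of EAE TRAIL+ and EAE TRAIL-, against 150 and 109 CPM in those of naive TRAIL+ and naive TRAIL-. The ratios were 5.71 (5.17 to 6.31) for TRAIL+ and 10.7 (8.10 to 14.3) for TRAIL-. It was seen in 901 of 1638 (55.0%) and 177 of 307 (57.7%) cells in EAE, against 321 of 1876 (17.1%) and 38 of 318 (11.9%) in naive. At 500 UMIs a cell these shares were 27.5% and 31.6% in EAE, against 6.40% and 6.60% in naive. Lgals3bp was widely spread, with 180 cells of EAE TRAIL+ holding 50% of its UMIs.

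Lgals9 had 428 and 386 CPM in microglia-like cells of EAE TRAIL+ and TRAIL-, against 277 and 247 CPM in naive TRAIL+ and TRAIL-, 1.55-fold (1.42 to 1.69) and 1.56-fold (1.25 to 1.96) higher. Lgals3 had 37.2 and 102.6 CPM in EAE, against 4.52 and 0 CPM in naive. No Lgals3 UMI was counted in 318 microglia-like cells of naive TRAIL-, which by the limit of 3 counts allows up to 0.943% of such cells with a UMI at this depth (median 1515 UMIs), and 62 were counted in EAE TRAIL-. Against a floor of 3 counts over the naive cells this was at least 17.2-fold higher. At 500 UMIs a cell, Lgals3 was in 1.22% and 5.21% of cells in EAE, and in 0.160% and 0% in naive.

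The other 4 were at low levels in microglia-like cells. Spp1 had 35.1 and 56.3 CPM in EAE TRAIL+ and TRAIL-, against 15.2 and 3.98 CPM in naive TRAIL+ and TRAIL-. In naive TRAIL+, 35 of the 47 Spp1 UMIs were in 1 cell, and without the highest barcodes the log2 ratio of EAE TRAIL+ over naive TRAIL+ went from 1.21 to 2.98. Thbs1 had 51.2 and 59.6 CPM in EAE, against 21.9 and 47.7 CPM in naive. Lgals1 had 9.39 and 31.4 CPM in EAE, against 2.90 and 0 CPM in naive. Gpnmb had 13.6 and 9.93 CPM in EAE, against 2.58 and 0 CPM in naive, at most 45 UMIs in a library. For EAE over naive, only Thbs1 of these 4, in the TRAIL- libraries, reached the 50 CPM minimum, at a ratio of 1.25 (0.724 to 2.19).

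For EAE TRAIL+ over naive TRAIL+, 1 of the 2 members compared in microglia-like cells was higher and 0 lower, where 2.4% of 3209 genes were higher and 0.499% lower. For EAE TRAIL- over naive TRAIL-, 2 of 4 were higher and 0 lower, where 8.09% of 3265 genes were higher and 8.27% lower. Lgals3 passed the minimum there only through EAE. Between EAE TRAIL+ and EAE TRAIL-, 1 of 4 was lower, Lgals3 at 2.75-fold (2.0 to 3.77), where 1.9% of 3218 genes were lower and 0.808% higher. Here Lgals3 passed the minimum only through TRAIL-. Between naive TRAIL+ and naive TRAIL-, 0 of 2 differed by 2-fold, where 0.315% of 3178 genes were higher and 0.755% lower. Rescaling with TMM or DESeq2 factors moved the log2 ratios of microglia-like cells by 0.22 and 0.19 between the EAE libraries, and turned the split of all called genes there from 26 higher and 61 lower to 103 and 32 (TMM). Between the naive libraries it turned from 10 higher and 24 lower to 47 and 8 (TMM), with a shift of 0.24. Lgals3 kept its call.

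The microglia-like class held a cluster that was led by Cd74, Ccl4 and H2-Aa, genes of antigen presentation and chemokines, with 0 microglia markers among its 10 leading genes and 10 among its top 100. It held 722 of the 1638 microglia-like barcodes of EAE TRAIL+ and 199 of the 307 of EAE TRAIL-, against 26 and 4 barcodes of naive TRAIL+ and TRAIL-. In EAE TRAIL+ the members other than Lgals1 had higher CPM in it than in the other microglia-like cells beyond counting error. The share of all genes that did so was not computed, so nothing is read from the number of members. Spp1 had 65.8 CPM in it and 7.99 CPM outside it, Gpnmb 25.8 and 2.85 CPM, Lgals3 68.4 and 9.70 CPM, and Thbs1 78.1 and 27.4 CPM. Lgals3bp had 1179 CPM in it and 568 CPM outside it, and Lgals9 470 and 391 CPM. Lgals1 had 11.6 CPM (18 UMIs) in it and 7.42 CPM (13 UMIs) outside it, a ratio of 1.57 with an interval of 0.726 to 3.48. At 500 UMIs a cell Lgals9 ran the other way, with 14.8% of cells in the cluster and 18.4% outside it, and Lgals1 was in 0.277% and 0.328%. Monocyte and macrophage markers summed to 889 CPM in the cluster and 566 CPM outside it, and their part in these differences was not tested. In EAE TRAIL-, Spp1, Lgals3, Lgals9, Lgals3bp and Thbs1 were also higher in the cluster beyond counting error. Gpnmb (6 UMIs in it against 0 outside it) and Lgals1 (14 against 5 UMIs) were not. Within the cluster, Lgals3 was 2.01-fold (1.43 to 2.80) and Lgals1 2.91-fold (1.34 to 6.19) lower in EAE TRAIL+ than in EAE TRAIL-. Lgals3bp, Spp1, Thbs1, Lgals9 and Gpnmb were at ratios of 0.894, 0.909, 1.01, 1.10 and 1.78. The part of the cluster's unequal share in the ratios of all microglia-like cells was not tested.

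Without that cluster the Lgals3bp difference was smaller, and Spp1 rested on few UMIs. In the remaining microglia-like cells Lgals3bp had 568 CPM in EAE TRAIL+ against 147 CPM in naive TRAIL+, 3.87-fold (3.46 to 4.33) higher. In EAE TRAIL- it had 836 CPM against 108 CPM in naive TRAIL-, 7.72-fold (5.64 to 10.7) higher. Spp1 had 7.99 CPM (14 UMIs) in EAE TRAIL+ against 15.4 CPM (47 UMIs, 35 of them in 1 cell) in naive TRAIL+ in these cells, and Lgals9 was 1.43-fold (1.29 to 1.58) higher. In EAE TRAIL- they had 21.0 CPM of Spp1 (4 UMIs), against 4.01 CPM (2 UMIs) in naive TRAIL-, the other direction on few counts, and Lgals9 was at a ratio of 1.18 (0.848 to 1.64). Monocyte and macrophage markers summed to 718 and 948 CPM in microglia-like cells of EAE TRAIL+ and TRAIL-, against 508 and 316 CPM in naive TRAIL+ and TRAIL-, with 20, 18, 19 and 13 of the 20 markers seen in that order. Counts of Lgals3 per count of Chil3, Plac8 and Ly6c2 were 1.45 in microglia-like and 0.584 in Chil3-led cells of EAE TRAIL+, and 1.07 and 0.222 in EAE TRAIL-. For Thbs1 they were 1.99 and 1.12 in EAE TRAIL+, and 0.621 and 0.407 in EAE TRAIL-. In microglia-like cells these ratios rest on 123 and 62 UMIs of Lgals3 and 169 and 36 of Thbs1, over 85 and 58 UMIs of Chil3, Plac8 and Ly6c2, in EAE TRAIL+ and EAE TRAIL-. The part of monocyte RNA in these levels was not tested.

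**Figure D4:**
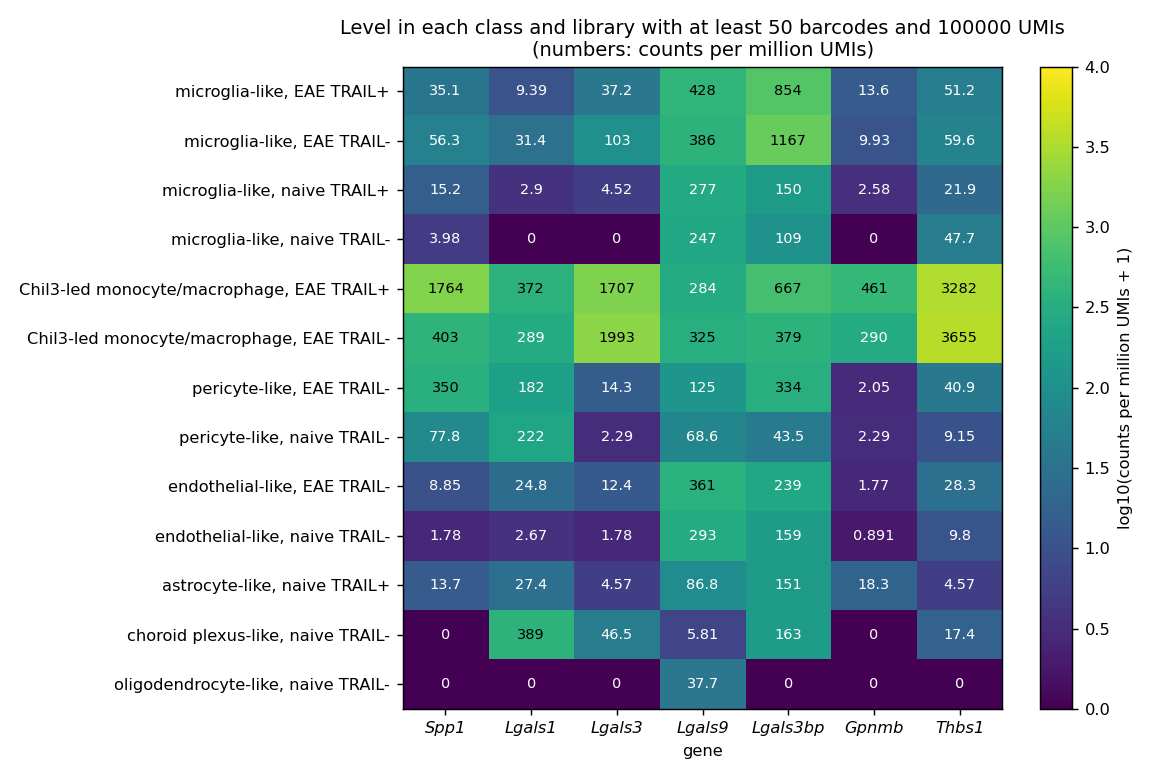
Level of each gene by cell class and library, for classes with at least 50 barcodes and 100000 UMIs in a library, as CPM printed in each cell and as log10(CPM + 1) in colour. Thbs1, Lgals3, Spp1 and Gpnmb peak in Chil3-led cells of EAE, and Lgals3bp in microglia-like cells of EAE.

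Pericyte-like cells of EAE TRAIL- had more Spp1 and Lgals3bp than those of naive TRAIL-, the only comparison their numbers allowed. The class was named from a list that holds markers of pericytes and of smooth muscle. In the finer clustering a cluster led by the smooth muscle genes Acta2, Tagln and Myl9 held 22 barcodes of EAE TRAIL- and 14 of naive TRAIL-. The part of such cells in the Spp1 level was not tested. Spp1 had 350.0 CPM in 464 pericyte-like cells of EAE TRAIL- and 77.8 CPM in 513 of naive TRAIL-, 4.50-fold (3.10 to 6.71) higher. It was seen in 43 cells in EAE and 10 in naive, and 20 of the 34 naive UMIs were in 1 cell. Without the highest barcodes the log2 ratio went from 2.17 to 3.29. Lgals3bp had 334 against 43.5 CPM, 7.68-fold (4.76 to 13.1) higher, Lgals9 125 against 68.6 CPM (1.82-fold), and Lgals1 182 against 222 CPM (1.22-fold lower). Of the 4 compared, 2 were higher and 0 lower, where 2.87% of 3872 genes were higher and 4.16% lower. Lgals3bp passed the 50 CPM minimum only through its EAE level, so nothing is read from this count. The log2 ratio of Lgals9 was 0.86, and 1.02 with DESeq2 factors or 1.09 without the highest barcodes.

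Markers of other cells were summed beside the Spp1 of pericyte-like cells. Counts of Spp1 per count of Chil3, Plac8 and Ly6c2 were 7.43 in pericyte-like cells (171 over 23 UMIs) and 0.0449 in Chil3-led cells of EAE TRAIL-. The 43 pericyte-like cells with Spp1 had 225 CPM of monocyte and macrophage markers on 10 UMIs (108 to 414 CPM), against 396 CPM (340.0 to 459) in the 421 without, so the intervals overlapped, and pericyte markers at 38058 and 38953 CPM in the same order. Fibroblast markers were at 2632 CPM (2176 to 3154) in the cells with Spp1 and 1466 CPM (1356 to 1583) in those without. These intervals did not overlap. The disease itself moved other markers in this class, with monocyte and macrophage markers at 381 CPM in EAE TRAIL-, against 108 CPM in naive TRAIL-. Lyz2, a lysozyme gene of myeloid cells, was 17.3-fold higher. The part of monocyte or fibroblast RNA in the Spp1 level was not tested.

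Endothelial-like cells showed smaller differences. Lgals3bp had 239 CPM in EAE TRAIL-, against 159 CPM in naive TRAIL-, 1.51-fold (1.20 to 1.90) higher, and Lgals9 361 against 293 CPM, 1.23-fold (1.03 to 1.47) higher. Of the 2 members compared there, 0 passed 2-fold, where 2.06% of 3637 genes were higher and 2.64% lower. Spp1, Lgals1, Lgals3, Gpnmb and Thbs1 gave 1 to 16 UMIs each in EAE TRAIL-, against 1 to 11 in naive TRAIL-, below the level minimum.

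**Figure D5:**
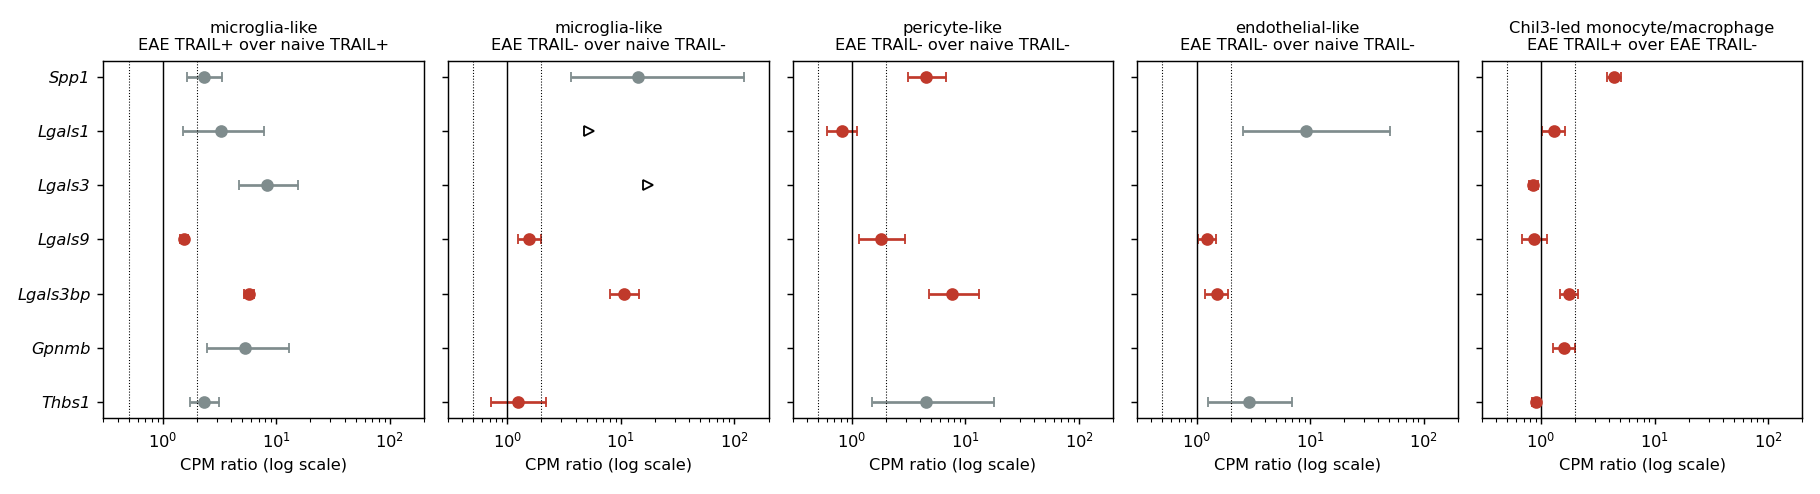
Ratio (log axis) of each gene between libraries within a cell class, the library named first over the one named second, with its 95% interval from counts. Points are red where the mean level reached 50 CPM and grey below it, and open triangles are lower bounds against a count of 0. Lgals3bp lies above 2-fold in microglia-like and pericyte-like cells for EAE over naive.

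Small classes held high levels of single members. Fibroblast-like cells had Spp1 at 1709 CPM in 30 cells of naive TRAIL-, 14 of them with a UMI, and at 2986 CPM in 8 cells of EAE TRAIL-. Thbs1 was at 2011 CPM in those 8 cells and at 854 CPM in the 30 cells of naive TRAIL-. Choroid plexus-like cells had Lgals1 at 430.0 CPM in 40 cells of EAE TRAIL- and at 389 CPM in 90 of naive TRAIL-, the highest value among classes of at least 50 barcodes. Their interval in naive TRAIL- (326 to 461 CPM) overlapped that of Chil3-led cells in EAE TRAIL+ (311 to 442 CPM), so the order of these is not resolved. Astrocyte-like cells, the cells named by the label, had Lgals3bp at 151 CPM and Lgals9 at 86.8 CPM in 153 cells of naive TRAIL+, and Lgals1, Gpnmb, Spp1, Lgals3 and Thbs1 at 27.4, 18.3, 13.7, 4.57 and 4.57 CPM. The 9 astrocyte-like cells of EAE TRAIL+ held 8 Lgals3bp UMIs, too few for a comparison.

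Among the receptors and ligands compared between EAE and naive whole libraries, Cd44 had the largest ratios. For EAE TRAIL+ over naive TRAIL+, 1 of 8 receptors of osteopontin and thrombospondin compared was higher and 0 were lower. Of all genes compared 3.53% were higher and 1.9% lower. The list median was -0.32 on the log2 scale against -0.05 over all genes. The receptor called was Cd44, with 95.7 against 7.43 CPM (12.9-fold). For EAE TRAIL- over naive TRAIL-, 2 of 9 were higher and 0 lower, where 6.93% of all genes were higher and 5.32% lower. These were Cd44 at 25.9-fold and the integrin gene Itga4 at 2.17-fold, with a list median of 0.27 against -0.14. Within microglia-like cells of the TRAIL- libraries Cd44 had 99.3 CPM in EAE and 1.99 CPM (1 UMI) in naive, a ratio of 49.9 (8.63 to 2005), and Sdc4, a syndecan, was 2.04-fold lower. Cd44 in each of these comparisons, and Itga4, passed the 50 CPM minimum only through EAE. Such a gene had to differ, so nothing is read from the receptor counts. Of 8 other galectin genes and ligands, 0 were called for EAE TRAIL+ over naive TRAIL+, and 1, Ptprc (CD45) at 2.77-fold higher, for EAE TRAIL- over naive TRAIL-.

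Genes known from disease-associated microglia, a list chosen with earlier results of these libraries known, were called as higher or not at all for EAE over naive. In whole libraries 7 of 22 were higher and 0 lower for EAE TRAIL+ over naive TRAIL+, where 3.53% of all genes compared were higher, with a median of 0.55 against -0.05, led by the NADPH oxidase gene Cybb (4.97-fold), Cd52 (3.01-fold) and Fabp5 (2.80-fold). For EAE TRAIL- over naive TRAIL-, 15 of 23 were higher, where 6.93% of all genes were, led by Cd52, Cybb and Lyz2 at 9.28-, 8.97- and 7.33-fold. Lyz2 is also a monocyte and macrophage marker and a leading gene of the Chil3-led cells. Those cells held 227 barcodes of EAE TRAIL- and 18 of naive TRAIL-, and their part in the whole-library counts was not tested. In microglia-like cells 3 of 20 were higher in EAE TRAIL+, where 2.4% of all genes were (Cybb 4.94-fold, the lipid carrier Apoe 3.33-fold, Cd52 2.35-fold). In those of EAE TRAIL-, 11 of 21 were higher, where 8.09% of all genes were, led by Cybb (36.1-fold), Apoe (13.5-fold) and the receptor kinase Axl (4.64-fold). Of the genes named, Fabp5 in whole TRAIL+ libraries and Cd52 in whole TRAIL- libraries passed the 50 CPM minimum only through EAE. In microglia-like cells Cybb did so in both fractions and Axl in TRAIL-. Such a gene had to differ, so these counts are in part set by the minimum.

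Homeostatic microglia genes were called lower in the TRAIL- comparison. None of 15 was called in microglia-like cells or in the whole library for EAE TRAIL+ over naive TRAIL+. Of all genes, 2.4% were higher and 0.499% lower in microglia-like cells, and 3.53% and 1.9% in the whole library. The list median was -0.41 against -0.05 in microglia-like cells. For EAE TRAIL- over naive TRAIL-, 8 of 15 were lower in microglia-like cells, where 8.27% of all genes were. They were led by the purinergic receptor P2ry12 (3.18-fold), Gpr34 (2.68-fold) and Fcrls (2.65-fold), with a list median of -1.0 against -0.07. In the whole library 3 of 15 were lower, where 5.32% of all genes were. Whether the fractions differ in this was not tested. Among matricellular genes in whole libraries, Tgfbi was 8.25-fold and 14.6-fold higher in EAE TRAIL+ and TRAIL- than in the naive library of the same fraction. Fibronectin, Fn1, was 5.66-fold higher in EAE TRAIL+, while Sparcl1 was 11.2-fold lower there and Ccn1 3.24-fold lower in EAE TRAIL-. That made 2 higher and 1 lower of 4 in TRAIL+, where 3.53% and 1.9% of all genes were. In TRAIL- it made 1 and 1 of 7, where 6.93% and 5.32% were. Tgfbi, and in TRAIL+ Fn1, passed the 50 CPM minimum only through EAE, and Sparcl1 only through naive. Of the genes under MITF and TFE factors, 0 of 7 were called in TRAIL+, and Npc2 (3.13-fold) and Plin2 (2.95-fold) of 6 were higher in TRAIL-. The shares over all genes are the same as for the matricellular genes. In microglia-like cells of EAE TRAIL- over naive TRAIL-, 1 of 7 of these was called, Mitf itself, at 3.15-fold lower (24 against 63 UMIs). Of all genes 8.09% were higher and 8.27% lower there. Fn1 and the matrix gene Vtn, which is also a pericyte marker, were 3.69-fold and 2.58-fold higher. Mitf passed the 50 CPM minimum only through naive, and Fn1 and Vtn only through EAE. Between microglia-like cells of EAE TRAIL+ and EAE TRAIL-, Sdc4 was 2.03-fold higher, and Cd44, Fabp5, Hif1a and Vtn were 4.62-, 3.84-, 2.27- and 71.0-fold lower. Cd44, Fabp5 and Vtn passed the minimum only through TRAIL-. Pericyte markers, Vtn among them, summed to 22.4 and 338 CPM in microglia-like cells of EAE TRAIL+ and TRAIL-. Pericyte-like cells made up 0.165% and 29.1% of these libraries. The part of pericyte RNA in the Vtn differences was not tested. Between those of the naive libraries Apoe was 2.23-fold higher in TRAIL+.

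In Chil3-led cells, EAE TRAIL+ over EAE TRAIL-, 8 of 12 homeostatic microglia genes compared were higher. Of all 3170 genes compared, 5.27% were higher and 6.69% lower. Those 8 were led by Fcrls (9.23-fold), Olfml3 (4.70-fold) and P2ry12 (4.41-fold), with a list median of 1.23 against -0.03 over all genes. Microglia-like cells made up 90.3% of EAE TRAIL+ and 19.2% of EAE TRAIL-, and the part of their RNA in these ratios was not tested. Disease-associated genes were 6 higher and 1 lower of 24, led by Timp2 (5.16-fold), Cd63 (4.47-fold) and Trem2 (4.18-fold), with Lpl 2.11-fold lower. The efferocytosis receptor Mertk was 3.34-fold and Mgat5, a glycosyltransferase that builds galectin ligands, 2.16-fold higher. Mitf was 3.01-fold (31 against 18 UMIs) and Lgmn 2.03-fold higher, and of the matricellular genes Sparc was 2.48-fold higher and Vtn, a pericyte marker, 37.8-fold lower. Fcrls, Olfml3, P2ry12, Timp2, Mertk, Mgat5 and Mitf passed the 50 CPM minimum only through TRAIL+, and Vtn only through TRAIL-. None of the 8 receptors was called. These are sums over the class, and whether the cells with Spp1 were those with these genes was not tested.

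In pericyte-like cells of EAE TRAIL-, 1 of 13 disease-associated genes was called, Lyz2, and none of 5 homeostatic, 7 receptor, 5 galectin, 6 matricellular or 4 MITF and TFE genes. Of all genes 2.87% were higher and 4.16% lower there. In endothelial-like cells Capg was 2.20-fold and Ccn2, a matricellular growth factor gene, 3.87-fold higher, where 2.06% of all genes were higher. Lyz2 and Capg passed the 50 CPM minimum only through EAE. Homeostatic genes were 15 of 15 higher in TRAIL+ than in TRAIL- in whole libraries, in EAE and in naive, where 11.7% and 14.6% of all genes were higher and microglia-like cells made up far more of TRAIL+. Within microglia-like cells 0 of 15 were called in either state. Of all genes compared there, 0.808% were higher and 1.9% lower in EAE, and 0.315% and 0.755% in naive. At such low shares nothing is read from the 0 of 15. The list medians were 0.42 in EAE and -0.02 in naive, against -0.03 and -0.04 over all genes.

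Across 13 profiles, each a cell class in 1 library with at least 50 barcodes and 100000 UMIs, the genes most like each member by Pearson's r of log2(CPM + 10) were these. For Thbs1 they were Ccr2 (0.987), the monocyte chemokine receptor, Wfdc17 (0.985) and Gm6377 (0.975). For Gpnmb they were Inhba (0.988), F10 (0.983) and Cfp (0.977), and for Lgals3 Cyp4f18 (0.973), Plbd1 (0.970) and Ms4a4c (0.965). Spp1 was less close to any gene, with Emp3 (0.910), Ebp (0.908) and Tgfbi (0.899). Lgals9 ran with the class I genes H2-D1 (0.955) and H2-K1 (0.951) and with Klf6 (0.953), and Lgals3bp with Bst2 (0.929), an interferon-induced gene, Cpt2 (0.898) and Rps18 (0.896). Lgals1 ran with Sec61g (0.954), Aldoa (0.945) and Aldoart1 (0.938), a near copy of Aldoa that may share its reads. These are the highest of 7812 genes over profiles that share libraries and depth, and only 8 of the 21 stayed among the closest 3 with a pseudocount of 1 and 1 of 21 with Spearman's correlation.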

How the data were processed

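The deposited tables hold UMI counts per barcode and gene, not scaled by the authors; per the submitters' processing notes reads were aligned with Bowtie to GRCm38. The Bowtie version, the annotation and the strand of counting were not given in the sources used here. Of 12987 barcodes listed, none under 100 UMIs, 7899 had at least 500 UMIs and at most 20% mitochondrial UMIs. Listed UMIs per library were 3984975 (EAE TRAIL+), 2856696 (EAE TRAIL-), 3967680 (naive TRAIL+) and 3109387 (naive TRAIL-).

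Barcodes were clustered by the Leiden method in scanpy 1.11.5 (Python 3.11.15, numpy 2.4.6, scipy 1.17.1) without the 7 genes and the genes of 6 lists, and clusters were named from 16 marker lists. The naming was changed once after the clusters were seen: leading genes were first taken by fold over all other cells, which left the Cd74-led cluster unnamed, and then by fold over the median of the other clusters. A cluster of 26 barcodes led by Fabp7 and Npy was kept unnamed by a rule added then. Scrublet marked 4, 28, 4 and 41 barcodes as doublets in EAE TRAIL+, EAE TRAIL-, naive TRAIL+ and naive TRAIL-. They were kept, and removed as an alternative.

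Counts were summed per class and library and given as CPM with exact Poisson intervals. Ratios have exact Clopper-Pearson intervals, shares Clopper-Pearson intervals, all at 95%, and PCR copies or free RNA are not covered by them. A count of 0 was given a floor of 3 counts, and a share of 0 a limit of 3 over the number of cells. Classes were compared with at least 50 barcodes and 100000 UMIs in both libraries, genes at a mean of 50 CPM, and a call was 2-fold. Shares of cells were also computed after thinning each cell to 500 UMIs. The script was tested on simulated data. Alternatives were TMM factors (edgeR 4.0.16) and DESeq2 1.42.0 size factors (R 4.3.3), other cell and gene filters, a 3-fold call, another clustering resolution and, added after the data were seen, the omission of the highest barcode, of the Chil3-led cells and of microglia-like cells with under 1% of UMIs from microglia markers. Of the 41862 gene columns, 41343 (98.8%) matched a GENCODE vM21 symbol.

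The 7 members, the gene lists and the markers were chosen with earlier results of these data known. The text names the 7 members, of each list up to 3 genes called in each direction by largest ratio (for TRAIL+ over TRAIL- only within cell classes), for each member the 3 genes most like it, and Lamp1, Tnfsf10 and Aldh1l1. Other genes are named as markers or leading genes of a cluster. The split of pericyte-like cells by Spp1, the counts of UMIs per cell and the promoter motifs were chosen after the data were seen.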

Additional observations from a re-analysis of the deposited data

How the results depend on the processing

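Over 66 member comparisons and 9 settings, 398 of 446 recomputed ratios moved by less than their counting interval and 48 by more, and no called ratio changed sign. Leaving out the Chil3-led cells took Gpnmb between EAE TRAIL+ and EAE TRAIL- from a log2 ratio of -0.41 to 1.68, Spp1 from 0.02 to -1.71, and Lgals3 and Thbs1 to -0.22 and -0.21. It took Lgals1 for EAE TRAIL+ over naive TRAIL+ from 1.52 to -0.05. Without the highest barcodes that Gpnmb ratio was 0.06 and that of Spp1 -0.35. Among named classes with at least 50 barcodes in a library, the class with the highest level of each member was unchanged by thinning, doublet removal and a finer clustering. Smaller classes, such as the fibroblast-like cells with high Spp1, were not ranked. The cause of these changes was not tested.

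Counts of called genes depended on the level minimum and the fold. In whole libraries, given as EAE TRAIL+ over naive TRAIL+, EAE TRAIL- over naive TRAIL-, EAE TRAIL+ over EAE TRAIL- and naive TRAIL+ over naive TRAIL-, 180, 497, 1047 and 1433 genes were called. Without the minimum there were 6632, 6726, 9314 and 9509, and at 3-fold 97, 171, 482 and 843. Without the Chil3-led cells 194 were called for EAE TRAIL- over naive TRAIL-. In microglia-like cells the same 4 comparisons gave 93, 534, 87 and 34, and without the minimum 5824, 4688, 5881 and 6382. TMM factors gave 135 between the EAE libraries and 55 between the naive ones, DESeq2 factors 59 between the naive ones and cells of at least 1000 UMIs 55. Chil3-led cells gave 379 and 3835 without the minimum. Endothelial-like cells gave 171, without the minimum 3582 and at 1000 UMIs 347. Pericyte-like cells gave 272, without the minimum 3636 and at 1000 UMIs 716. Of the 21 like genes, 8 were shared with a pseudocount of 1 and 1 with Spearman's correlation.

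Rescaling moved all log2 ratios of a comparison by -0.17 to 0.31, and with it the split of called genes into higher and lower. In whole libraries EAE TRAIL+ over EAE TRAIL- went from 426 and 621 to 564 and 538 (DESeq2 factors), and naive TRAIL+ over naive TRAIL- from 560 and 873 to 742 and 740 (TMM) and 867 and 692 (DESeq2). In microglia-like cells EAE TRAIL+ over naive TRAIL+ went from 77 and 16 to 58 and 35 (TMM) and 65 and 27 (DESeq2), and EAE TRAIL- over naive TRAIL- from 264 and 270 to 207 and 322 (TMM). Between the EAE libraries DESeq2 factors gave 88 and 36 there, and between the naive ones 51 and 8. Chil3-led cells went from 167 and 212 to 98 and 315 (TMM) and 111 and 273 (DESeq2), endothelial-like cells from 75 and 96 to 49 and 135 (TMM) and 58 and 116 (DESeq2), and pericyte-like cells from 111 and 161 to 226 and 92 (DESeq2). Depth limits the members of low level: the naive Chil3-led cells number 17 and 18, and Gpnmb and Lgals1 gave few UMIs in microglia-like cells. No paired analysis was possible because each group has 1 library.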
